A study of Mus musculus with 6 samples.

Results

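The chromatin modifying enzymes are the genes whose products add, remove or slide over the marks and nucleosomes of chromatin. They were chosen by gene symbol alone, as the genes named Kdm, Kmt, Setd, Hdac, Sirt, Chd, Dnmt, Tet, Ezh, Ehmt, Kat, Prmt or Smarc. Of 15398 genes in the deposited table, 100 carried such a symbol, and 95 of these had enough counts to be tested. Tet1, Hdac9, Prmt8, Kdm4d and Smarca1 were too low to test. The study used bEND.3, a mouse line established from brain endothelial cells, in 6 RNA-seq libraries. In 3 of them the cells stably expressed circSlc17a5, which is a circular RNA bearing the name of the gene Slc17a5, and in 3 they carried the matching empty vector, called control here. All 6 share the cell line and a stable vector, and how many clones stand behind each stable line was not stated. Nothing in the labels tells whether replicates were separate cultures, so every p-value reflects the spread among these libraries alone, which may be technical.

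Histones carry methyl and acetyl groups that are placed by methyltransferases and acetyltransferases and taken off by demethylases and deacetylases. DNA methyltransferases place methyl groups on cytosine, and TET dioxygenases oxidise them. CHD and SWI/SNF proteins use ATP to move or evict nucleosomes. Many of these enzymes come as close paralogs that take each other's place in a complex, so the balance within a family is followed as well as the level of each gene.

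Library totals lay between 16848504 and 17600221 estimated counts. Slc17a5 itself had 33.8, 28.4 and 28.8 CPM (counts scaled to library size by TMM) in circSlc17a5 libraries, against 22.9, 21.6 and 22.4 CPM in control libraries, which does not separate circular from linear reads. Of 9 endothelial markers in the table, Flt1 and Ets1 averaged 8.39 and 8.11 TPM (a length-corrected share of all transcripts), and Pecam1, Cdh5, Kdr, Tek, Tie1, Erg and Vwf were each below 1 TPM. The 9 summed to 17.4 to 23.1 TPM in circSlc17a5 and 13.0 to 16.1 TPM in control libraries. The epithelial list summed to 1600 to 1650 TPM in circSlc17a5 and 1550 to 1920 TPM in control libraries, nearly all of it from Krt8, Krt18 and Krt19, while Epcam and Cdh1 averaged 0.832 and 0.0183 TPM. The defining endothelial markers Pecam1, Cdh5, Kdr and Tek were thus close to 0 in cells labelled as this line. The mural, smooth muscle and fibroblast list summed to 5.46, 21.88 and 8.34 TPM in circSlc17a5 libraries and 28.68, 4.72 and 4.3 TPM in control libraries, so circSlc17a5 replicate 2 and control replicate 1 stood apart in it. Of 4 leukocyte markers, 2 were in the table, Cd68 at an average of 326.5 TPM and Ptprc at 0.00167 TPM. They summed to 345 to 394 TPM in circSlc17a5 and 262 to 311 TPM in control libraries. Cd68 did not pass the test used below (edgeR adjusted p = 0.0954). Of 8 mitotic genes, 7 rose and 0 fell, while 11.8% of all tested genes rose. The mitotic genes had a summed level of 165 to 191 TPM in circSlc17a5 and 102 to 115 TPM in control libraries. In bulk RNA, fewer cells of a type and less RNA per cell cannot be told apart. On the first principal component of all tested genes, circSlc17a5 libraries stood at 24.3, 15.7 and 13.3, against −4.46, −30.4 and −18.4 in control libraries, with control replicate 1 nearest to the circSlc17a5 side.

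Among the 95 tested enzymes, 11 rose and 6 fell in circSlc17a5 cells. The risen genes were Chd9, Kmt2a, Kdm3b, Kdm5a, Kdm7a, Kat2b, Kdm5c, Dnmt1, Chd2, Chd7 and Smarcc1. The fallen genes were Prmt9, Smarca2, Smarcb1, Prmt1, Smarce1 and Hdac1. A gene is said to rise or fall where edgeR's quasi-likelihood test gave a Benjamini-Hochberg adjusted p under 0.05 over all 11722 tested genes. The share of enzymes called was 17.9%, against 22% of all tested genes, of which 11.8% rose and 10.2% fell. The median log2 fold change of the enzymes was 0.04, against 0.00 over all tested genes (−0.00242 before rounding). The groups did not overlap in 30 of the 95 enzymes, or 31.6%, against 42.6% of all tested genes. An unadjusted p under 0.05 by edgeR was held by 30 of the 95 enzymes, against 4583 of all 11722 tested genes. As a whole, the enzymes were therefore called no more often than other genes.

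**Figure D1:**
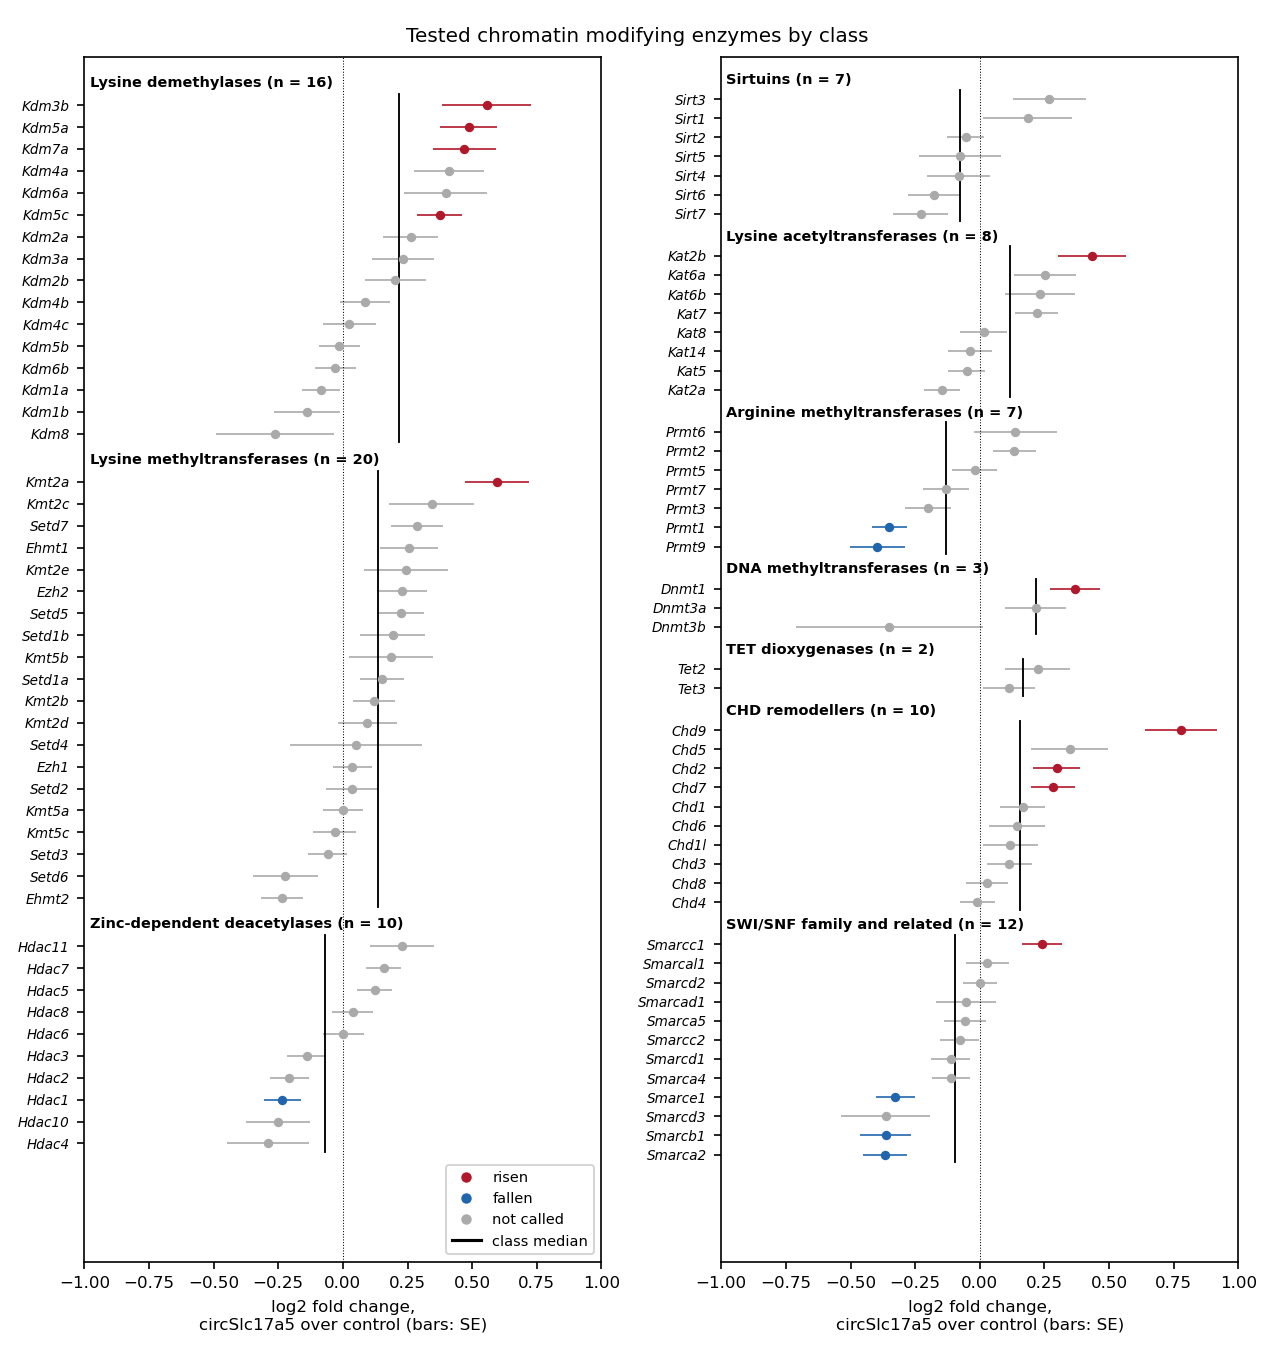
Log2 fold change of each of the 95 tested enzymes, circSlc17a5 over control, with its SE as a bar, grouped by enzyme class; red points rose, blue points fell, grey points were not called, and the black line is the class median. The demethylases and the CHD remodellers hold 4 and 3 risen genes and no fallen one, while the arginine methyltransferases hold 2 fallen genes and no risen one. Over all tested genes, 11.8% rose and 10.2% fell.

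The promoters of the genes with the smallest adjusted p among the risen and the fallen enzymes are shown to set the DNA around their starts beside the expression values. They are Chd9 and Kmt2a, which rose, and Prmt1 and Smarca2, which fell. Each window runs from 250 bases before to 50 bases after a start listed for the gene in RefSeq (GRCm38.p6). It is written 5′ to 3′ on the gene's strand. Where a gene had several windows, the one nearest to the start of its listed span was taken. The windows of Smarca2 and Kmt2a lie inside the listed spans, which begin at 26600358 and, on the minus strand, at 44882722. Capitals mark GGGCGG, the core of the GC box bound by Sp family factors, or its reverse complement CCGCCC. The windows lie at chr8:90828585-90828884 (plus strand, Chd9), chr9:44881240-44881539 (minus strand, Kmt2a), chr7:44986371-44986670 (minus strand, Prmt1) and chr19:26604910-26605209 (plus strand, Smarca2).
Chd9: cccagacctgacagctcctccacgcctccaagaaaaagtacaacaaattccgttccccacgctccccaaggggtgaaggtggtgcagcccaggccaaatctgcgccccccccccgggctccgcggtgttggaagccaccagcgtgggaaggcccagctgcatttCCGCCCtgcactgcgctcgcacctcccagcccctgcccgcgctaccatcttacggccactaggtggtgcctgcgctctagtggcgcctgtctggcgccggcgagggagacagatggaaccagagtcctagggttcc
Kmt2a: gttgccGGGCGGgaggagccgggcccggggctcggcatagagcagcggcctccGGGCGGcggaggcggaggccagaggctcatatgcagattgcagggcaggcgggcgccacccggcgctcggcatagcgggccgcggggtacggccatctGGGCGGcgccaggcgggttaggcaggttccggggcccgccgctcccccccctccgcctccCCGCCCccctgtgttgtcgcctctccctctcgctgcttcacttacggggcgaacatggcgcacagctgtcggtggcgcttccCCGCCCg
Prmt1: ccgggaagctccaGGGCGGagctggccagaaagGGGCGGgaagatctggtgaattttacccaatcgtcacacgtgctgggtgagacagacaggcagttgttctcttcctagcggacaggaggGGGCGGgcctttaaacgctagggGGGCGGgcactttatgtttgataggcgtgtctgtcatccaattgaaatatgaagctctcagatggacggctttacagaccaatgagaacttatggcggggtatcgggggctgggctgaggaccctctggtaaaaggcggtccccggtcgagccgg
Smarca2: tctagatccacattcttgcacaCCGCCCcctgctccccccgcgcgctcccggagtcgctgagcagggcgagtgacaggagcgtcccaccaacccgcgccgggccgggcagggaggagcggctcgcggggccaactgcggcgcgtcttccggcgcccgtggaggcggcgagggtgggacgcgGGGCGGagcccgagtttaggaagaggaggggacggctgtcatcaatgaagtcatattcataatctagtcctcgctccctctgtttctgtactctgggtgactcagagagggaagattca

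These windows hold 19 CpG dinucleotides in Chd9, 36 in Kmt2a, 17 in Prmt1 and 29 in Smarca2, against a median of 7 over the 27025 genes with a window. That median includes genes that were not tested, and no median over the tested genes or the enzymes was taken. The median and the shares below used the first listed window of each gene, which may differ from the window printed above. GGGCGG was present on either strand in 67.5% of the 83 enzymes with a window, in 66.0% of 9416 tested genes and in 35.9% of all 27025 genes. CCAAT, searched on both strands, was present in 39.8% of the enzymes and 39.8% of tested genes, and occurs 3 times in the Prmt1 window. TTCCCGCC, an E2F-type motif searched on both strands, was present in 2.41% of the enzymes and 4.29% of tested genes, and occurs once in the Prmt1 window. GGGCGG was found in 4 of 7 risen and 3 of 4 fallen enzymes with a window. The enzymes' windows thus held these letters about as often as those of other tested genes.

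Among the lysine methyltransferases with a Kmt, Setd, Ezh or Ehmt symbol, Kmt2a, the gene of a mixed-lineage leukaemia methyltransferase, rose. Of 20 tested members, 1 rose, 0 fell and 6 had an unadjusted p under 0.05 in either direction, with a median log2 fold change of 0.14. Over all 11722 tested genes, 4583 had such a p. Without control replicate 1, 5 of the 20 members rose and 1 fell, or 30.0%, against 39.7% of all tested genes in that fit. Kmt2a, which methylates histone H3 at active promoters, had 180.2, 127.9 and 127.9 CPM in circSlc17a5 libraries, against 100.3, 93.0 and 95.2 CPM in control libraries. Every circSlc17a5 library lay above every control, and replicate 1 stood well above the other two. The level was 1.51-fold higher (log2 fold change 0.60, SE 0.124, adjusted p = 0.0126 by edgeR's quasi-likelihood test). The gene lies on chromosome 9 from 44803355 to 44882722 as the files give it. Without control replicate 3 its adjusted p was 0.0595, and it stayed called without any other single library.

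The other Kmt2 genes did not pass. Kmt2d, a large enhancer methyltransferase, had 212.7, 154.3 and 157.3 CPM in circSlc17a5 libraries, against 158.9, 169.2 and 163.2 CPM in control libraries. Its groups overlapped, with circSlc17a5 replicate 1 high and the others below every control (log2 fold change 0.09). Kmt2b, Kmt2c and Kmt2e had log2 fold changes of 0.12, 0.34 and 0.25. In TPM, which corrects for length, Kmt2a made up 27.1 ± 1.58% of the summed level of the 5 Kmt2 genes in circSlc17a5 libraries and 21.1 ± 0.422% in control libraries (SD, n = 3 each).

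The Polycomb methyltransferases Ezh2 and Ezh1, which place the repressive methyl mark on histone H3, did not pass the test. Ezh2 had 50.6, 45.7 and 44.9 CPM in circSlc17a5 libraries, against 35.9, 40.1 and 44.6 CPM in control libraries. The lowest circSlc17a5 library was just above the highest control (log2 fold change 0.23, edgeR adjusted p = 0.105). Ezh1 had 55.1, 53.4 and 53.2 CPM in circSlc17a5 and 52.9, 48.9 and 55.7 CPM in control libraries, and its groups overlapped (log2 fold change 0.04).

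Ehmt1 and Ehmt2 encode paired methyltransferases of repressed euchromatin, and neither passed. Ehmt2, which had the highest TPM of this class, had 216.2, 226.6 and 234.2 CPM in circSlc17a5 libraries, against 241.1, 269.6 and 285.9 CPM in control libraries. Every circSlc17a5 library was below every control, and its adjusted p of 0.0577 by edgeR (log2 fold change −0.23, SE 0.0800) missed the threshold, while its q in the authors' deposited table passed. Ehmt1 had 44.4, 36.6 and 36.4 CPM in circSlc17a5 and 36.4, 28.8 and 33.2 CPM in control libraries (log2 fold change 0.26). Setd7, a monomethyltransferase, had a log2 fold change of 0.29 (edgeR adjusted p = 0.0606).

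Of 16 tested lysine demethylases, 4 rose, 0 fell and 7 had an unadjusted p under 0.05 in either direction, and the median log2 fold change was 0.22. The 25.0% called was near the 22% of all tested genes. Without control replicate 1, 8 of the 16 rose and 0 fell. In that fit 39.7% of all tested genes were called, 20.5% risen and 19.2% fallen. Kdm5a and Kdm5c remove methyl groups from histone H3 at active promoters, Kdm3b acts on a repressive lysine mark, and Kdm7a is a PHD finger demethylase of repressive marks. Kdm5a had 87.5, 72.7 and 66.9 CPM in circSlc17a5 libraries, against 60.1, 48.5 and 53.7 CPM in control libraries. The groups did not overlap, and the level was 1.40-fold higher (log2 fold change 0.49, SE 0.112, edgeR adjusted p = 0.0177).

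Kdm5c had 224.5, 195.8 and 203.4 CPM in circSlc17a5 libraries, against 171.5, 143.3 and 166.4 CPM in control libraries. All circSlc17a5 libraries were above all controls, by 1.30-fold (log2 fold change 0.37, SE 0.0876, edgeR adjusted p = 0.0189). Kdm5b, a further gene of that family, had 98.8, 90.8 and 85.9 CPM in circSlc17a5 and 87.1, 96.2 and 94.9 CPM in control libraries, and its groups overlapped (log2 fold change −0.01). In TPM, Kdm5b made up 31.3 ± 1.2% of the 3 genes' sum in circSlc17a5 libraries and 38.3 ± 3.21% in control libraries, while Kdm5c made up 55.3 ± 1.4% and 49.8 ± 2.65% (SD, n = 3 each, circSlc17a5 before control).

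Kdm7a had 64.9, 52.0 and 50.9 CPM in circSlc17a5 libraries, against 47.0, 35.7 and 38.6 CPM in control libraries. The groups were apart, with a 1.38-fold higher level (log2 fold change 0.47, SE 0.123, edgeR adjusted p = 0.0263). Kdm3b had 55.6, 43.8 and 45.6 CPM in circSlc17a5 libraries, against 40.5, 23.2 and 34.9 CPM in control libraries. Control replicate 2 was far below the other controls, and the 1.47-fold difference had an adjusted p of 0.0428 by edgeR (log2 fold change 0.56, SE 0.172). The listed spans of Kdm3b and Kdm5a overlap those of Reep2 and Ccdc77, and whether the counting used strand was not stated, so these 2 values are uncertain.

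None of the 4 calls held with each library left out in turn. The highest edgeR adjusted p with 1 library left out was 0.0768 for Kdm5a, 0.0867 for Kdm5c, 0.114 for Kdm7a and 0.17 for Kdm3b. Of these single omissions, Kdm3b stayed called only without control replicate 1, and Kdm5a and Kdm7a only without that library or without circSlc17a5 replicate 3. Kdm5c was called without either of those or without control replicate 2. Among demethylases not called, Kdm4a had a log2 fold change of 0.41 (edgeR adjusted p = 0.0525) and Kdm6a, a demethylase of the Polycomb mark, 0.40 (adjusted p = 0.0952). Kdm6b, of the same specificity, was at −0.03, and Kdm1a, the flavin-dependent enzyme with the highest TPM of the class, at −0.09.

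Of the lysine acetyltransferases, 1 of 8 tested members rose, 0 fell and 2 had an unadjusted p under 0.05. Without control replicate 1, 4 of the 8 rose and 0 fell, against 20.5% risen and 19.2% fallen of all tested genes in that fit. Kat2b, the PCAF acetyltransferase, had 46.3, 42.3 and 38.4 CPM in circSlc17a5 libraries, against 38.4, 28.2 and 27.4 CPM in control libraries. It was the only called enzyme whose groups overlapped, since circSlc17a5 replicate 3 and control replicate 1 lay at the same rounded level. The level was 1.35-fold higher (log2 fold change 0.43, SE 0.130, edgeR adjusted p = 0.0396), and the call held only without control replicate 1 (highest adjusted p with 1 library left out 0.152). Its paralog Kat2a, which occupies the same place in the SAGA-type complex, had 77.4, 74.0 and 78.2 CPM in circSlc17a5 and 87.7, 83.1 and 83.2 CPM in control libraries. Those groups did not overlap, but the log2 fold change of −0.15 had an edgeR adjusted p of 0.139. Kat2b made up 28.2 ± 2.1% of the summed TPM of the pair in circSlc17a5 libraries and 21.0 ± 2.4% in control libraries (SD, n = 3 each). Kat7, the member with the highest TPM, had a log2 fold change of 0.22 (edgeR adjusted p = 0.081).

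The zinc-dependent deacetylases were mostly not called. Of 10 tested members, 0 rose, 1 fell and 3 had an unadjusted p under 0.05. Without control replicate 1, 0 rose and 2 fell, or 20.0%, against 39.7% of all tested genes in that fit. Hdac1, a catalytic subunit of the NuRD, Sin3 and CoREST complexes and the deacetylase with the highest TPM, had 148.9, 148.0 and 141.7 CPM in circSlc17a5 libraries, against 183.0, 162.8 and 170.0 CPM in control libraries. The groups did not overlap, and the level was 1.18-fold lower (log2 fold change −0.23, SE 0.0715, edgeR adjusted p = 0.0421). The call held only without control replicate 2, with an adjusted p of up to 0.142 when another library was left out. The listed span of Hdac1, at 129516104 to 129542646 on chromosome 4, overlaps those of 6 other genes, Spocd1 among them. The same genes are listed as overlapping Chd7, at 8690402 to 8868449 on that chromosome. Spans that reach both places are doubtful as listed, and any effect on the Hdac1 count was not tested.

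Hdac2, its close paralog, had 140.7, 144.7 and 140.7 CPM in circSlc17a5 libraries, against 148.8, 169.3 and 173.7 CPM in control libraries. These groups were also apart, at a log2 fold change of −0.21 that missed the threshold (edgeR adjusted p = 0.0738). Among the class I genes, Hdac1 made up 39.1 ± 0.895% of the summed TPM in circSlc17a5 libraries and 40.4 ± 2.95% in control libraries, and the values overlapped (exact two-sided permutation p = 0.7). Hdac4, Hdac5 and Hdac7, class IIa corepressors, had log2 fold changes of −0.29, 0.12 and 0.16, none of them called.

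No sirtuin changed by the edgeR test over all 6 libraries. Of 7 tested members of this NAD-dependent deacylase family, 0 rose, 0 fell and 0 had an unadjusted p under 0.05, and DESeq2 and limma-voom, which called 16.7% and 21.6% of the genes they tested, called 0 as well. Sirt2, the sirtuin with the highest TPM, had 101.2, 105.9 and 107.2 CPM in circSlc17a5 and 102.7, 108.4 and 115.2 CPM in control libraries. Its groups overlapped, with a log2 fold change of −0.05 (SE 0.0719). Sirt1, Sirt3 and Sirt7 had log2 fold changes of 0.18, 0.27 and −0.23. Without control replicate 1 these 3 were called, at log2 fold changes of 0.43, 0.41 and −0.33 and edgeR adjusted p of 0.0197, 0.025 and 0.0101. That made 42.9% of the class, against 39.7% of all genes in that fit. Sirt7 was also called with the replicate block (edgeR adjusted p = 0.0404).

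The arginine methyltransferases held 2 fallen genes, 0 risen and 3 with an unadjusted p under 0.05 among 7 tested. The 28.6% called stood against 22% of all tested genes, and no test set the class apart. Over all 11722 tested genes, 10.2% fell and 4583 had such a p. Without control replicate 1 the share of the class was again 28.6%, against 39.7% of all tested genes in that fit. Prmt1, which places most asymmetric dimethylarginine and has the highest TPM of the class, had 91.2, 97.6 and 92.1 CPM in circSlc17a5 libraries, against 121.7, 118.0 and 118.3 CPM in control libraries. The replicates were close together and the groups far apart relative to them. The level was 1.27-fold lower (log2 fold change −0.35, SE 0.0672, edgeR adjusted p = 0.00935). Without circSlc17a5 replicate 1 the adjusted p was 0.0505, and the call held without each other library.

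Prmt9, a symmetric dimethyltransferase known for a splicing factor substrate, had 13.5, 13.9 and 13.0 CPM in circSlc17a5 libraries, against 16.5, 20.1 and 16.7 CPM in control libraries. The groups were apart and the level 1.32-fold lower (log2 fold change −0.40, SE 0.106, edgeR adjusted p = 0.0282). This call held only without control replicate 1, and reached an adjusted p of 0.0984 without another library. Prmt5, the main symmetric dimethyltransferase, had 88.6, 88.0 and 82.8 CPM in circSlc17a5 and 97.3, 87.0 and 78.6 CPM in control libraries, with overlapping groups (log2 fold change −0.02).

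**Figure D2:**
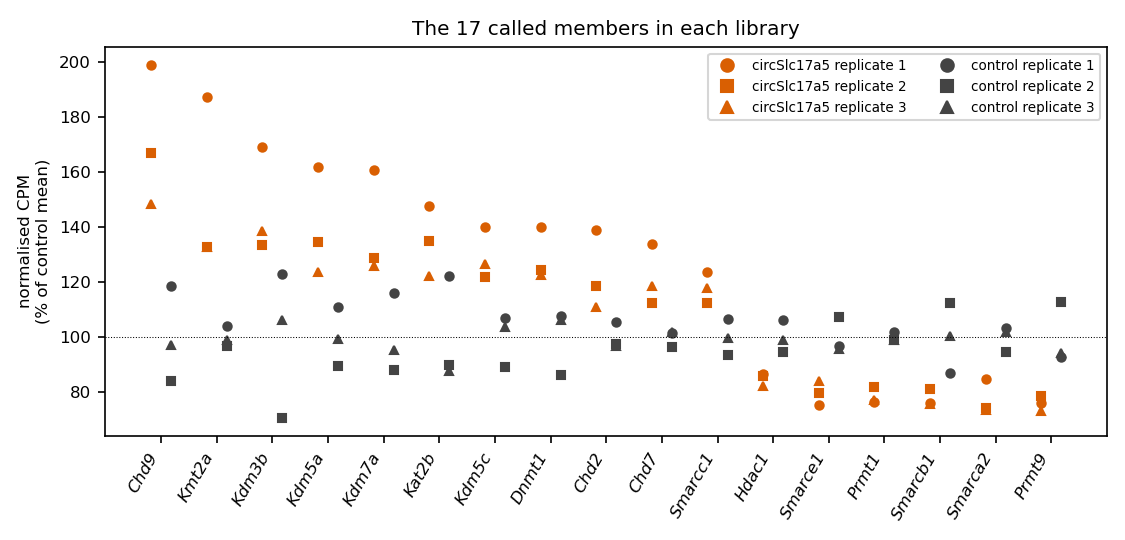
Normalised CPM of the 17 called enzymes in each library, as percent of the gene's control mean, ordered by fold change; orange symbols are circSlc17a5 libraries, dark symbols control libraries, and the shape gives the replicate. For all 11 risen genes circSlc17a5 replicate 1 is the highest point, and only Kat2b has groups that meet.

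Of 3 tested DNA methyltransferases, 1 rose and 0 fell. Without control replicate 1, 2 of the 3 rose, in a fit where 20.5% of all tested genes rose. Dnmt1, which copies methylation onto the new strand after replication, had 144.9, 128.7 and 126.9 CPM in circSlc17a5 libraries, against 111.4, 89.2 and 109.9 CPM in control libraries. The groups did not overlap, and the level was 1.29-fold higher (log2 fold change 0.37, SE 0.0968, edgeR adjusted p = 0.027). The call held only without control replicate 1, with an adjusted p of up to 0.116 without another library. The mitotic genes given above moved in the same direction, and their part in the Dnmt1 result was not tested.

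Dnmt3a, a de novo methyltransferase, had 60.4, 49.7 and 47.5 CPM in circSlc17a5 and 51.3, 39.6 and 44.8 CPM in control libraries. Its groups overlapped (log2 fold change 0.22, edgeR adjusted p = 0.192). Dnmt3b, the other de novo enzyme, lay at 0.5 to 0.8 CPM in circSlc17a5 and 0.5 to 1.2 CPM in control libraries, too low for its log2 fold change of −0.35 (SE 0.362) to be resolved. Dnmt1 made up 82.2 ± 0.518% of the summed TPM of the 3 genes in circSlc17a5 libraries and 80.1 ± 0.69% in control libraries (SD, n = 3 each).

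Of the TET dioxygenases, 0 of 2 tested members were called by edgeR, 0 had an unadjusted p under 0.05, and DESeq2 and limma-voom called 0. Tet2 had 36.8, 26.7 and 27.4 CPM in circSlc17a5 and 26.8, 23.9 and 27.1 CPM in control libraries. Tet3, the member with the highest TPM, had 46.5, 37.3 and 38.0 CPM in circSlc17a5 and 39.7, 37.3 and 35.7 CPM in control libraries. In both genes circSlc17a5 replicate 1 was high and the groups overlapped (log2 fold change 0.22 and 0.11). Tet1 had 15, 11 and 6 counts in circSlc17a5 and 4, 7 and 4 counts in control libraries and was not tested.

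The CHD remodellers held the largest fold change of all 95 tested enzymes. Of 10 tested members, 3 rose, 0 fell and 4 had an unadjusted p under 0.05, and 9 of the 10 had a positive log2 fold change (median 0.16). Over all 11722 tested genes, 11.8% rose and 5810 had a positive log2 fold change. CHD transcripts are long (median 8637.5 bases), and 26.2% of all tested genes with transcripts of at least 6000 bases rose. Once transcript length and GC content were offset in the edgeR fit, 5 CHD genes were positive and 5 negative (median −0.017). Chd9, a large CHD protein with chromodomains and an SNF2-type ATPase, had 49.6, 41.7 and 37.0 CPM in circSlc17a5 libraries, against 29.6, 20.9 and 24.3 CPM in control libraries. Every circSlc17a5 library stood above every control. The level was 1.72-fold higher (log2 fold change 0.78, SE 0.139, edgeR adjusted p = 0.00735). It was the only enzyme called with each of the 6 libraries left out in turn, with a highest adjusted p of 0.0447. The gene lies on chromosome 8 from 90828302 to 91056557 as the files give it.

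Chd2, which is linked to chromatin opening at active genes, had 97.0, 82.7 and 77.5 CPM in circSlc17a5 libraries, against 73.6, 68.0 and 67.7 CPM in control libraries. Its groups were apart, by 1.23-fold (log2 fold change 0.30, SE 0.0915, edgeR adjusted p = 0.0425). Chd7, an enhancer-bound remodeller altered in CHARGE syndrome in humans, had 54.6, 45.8 and 48.3 CPM in circSlc17a5 libraries, against 41.4, 39.3 and 41.5 CPM in control libraries. It was 1.22-fold higher (log2 fold change 0.28, SE 0.0860, edgeR adjusted p = 0.0407). Its listed span overlaps those of 7 genes, among them the 6 given above for Hdac1. Those spans are doubtful as listed, and any effect on the Chd7 count was not tested. Without single libraries the adjusted p reached 0.167 for Chd2 and 0.162 for Chd7. The Chd2 call held only without control replicate 1 or circSlc17a5 replicate 3, and the Chd7 call only without control replicate 1.

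Chd4, the main NuRD ATPase and the CHD gene with the highest TPM, had 259.8, 235.2 and 248.9 CPM in circSlc17a5 and 247.1, 246.8 and 254.8 CPM in control libraries. Its groups overlapped fully (log2 fold change −0.01, SE 0.0691). Chd5 had a log2 fold change of 0.35 at 6.8 to 11.5 CPM over the 6 libraries and was not called. Chd8 was at 0.03.

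Of 12 tested members of the SWI/SNF family, 1 rose, 3 fell and 4 had an unadjusted p under 0.05, with a median log2 fold change of −0.09. The 33.3% called stood against 22% of all tested genes, and no test set the class apart. Smarca2 encodes BRM, an ATPase that takes the place of BRG1 (Smarca4) in the complex, and it had 44.9, 39.2 and 38.8 CPM in circSlc17a5 libraries, against 54.7, 50.1 and 53.8 CPM in control libraries. The groups did not overlap, and the level was 1.29-fold lower (log2 fold change −0.37, SE 0.0850, edgeR adjusted p = 0.018). Smarca4 had 125.8, 110.2 and 114.0 CPM in circSlc17a5 and 123.8, 130.0 and 124.4 CPM in control libraries, with overlapping groups (log2 fold change −0.11, edgeR adjusted p = 0.28).

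Smarcb1 and Smarce1 encode core subunits of the complex. Smarcb1 had 45.3, 48.5 and 45.1 CPM in circSlc17a5 libraries, against 51.8, 67.1 and 59.9 CPM in control libraries, and was 1.29-fold lower (log2 fold change −0.36, SE 0.0977, edgeR adjusted p = 0.0283). Smarce1, the member with the highest TPM, had 147.8, 156.6 and 164.5 CPM in circSlc17a5 libraries, against 189.7, 210.7 and 187.4 CPM in control libraries. It was 1.25-fold lower (log2 fold change −0.33, SE 0.0765, edgeR adjusted p = 0.019), and in both genes the groups were apart.

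Smarcc1, a scaffold subunit, went the other way, with 116.1, 105.6 and 110.9 CPM in circSlc17a5 libraries, against 100.3, 87.7 and 93.6 CPM in control libraries. The groups were apart and the level 1.18-fold higher (log2 fold change 0.24, SE 0.0763, edgeR adjusted p = 0.0466). Its paralog Smarcc2 had a log2 fold change of −0.08 and was not called. With 1 library left out, the highest edgeR adjusted p was 0.0751 for Smarca2, 0.0867 for Smarce1, 0.108 for Smarcb1 and 0.167 for Smarcc1. The Smarcb1 and Smarcc1 calls held only without control replicate 1. Smarca2 was lost without circSlc17a5 replicate 2 or 3 or control replicate 3, and Smarce1 without circSlc17a5 replicate 1 or 2 or control replicate 2.

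The balance within the paralog pairs was compared as a share of summed TPM. Smarca2 made up 36.5%, 37.4% and 38.6% of Smarca2 plus Smarca4 in circSlc17a5 libraries, against 43.8%, 48.8% and 47.7% in control libraries, or 37.5 ± 1.07% and 46.8 ± 2.62% (SD, n = 3 each). All circSlc17a5 libraries lay below all controls. Smarcc1 made up 48.9 ± 0.646% of Smarcc1 plus Smarcc2 in circSlc17a5 libraries and 43.6 ± 0.391% in control libraries, again with no overlap. The Smarca2 difference was wider in TPM than in CPM. Its means, circSlc17a5 before control, were 41.0 and 52.9 CPM but 13.9 and 20.8 TPM. For Smarca4 they were 116.7 and 126.1 CPM, and 23.2 and 23.5 TPM. How far the length correction of TPM widened the difference in share was not tested. Over the 11 families, 31 shares were compared. With 3 libraries against 3, the exact two-sided permutation test cannot give a p below 0.1, the value for both of these pairs, and the smallest Benjamini-Hochberg adjusted value was 0.163.

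**Figure D3:**
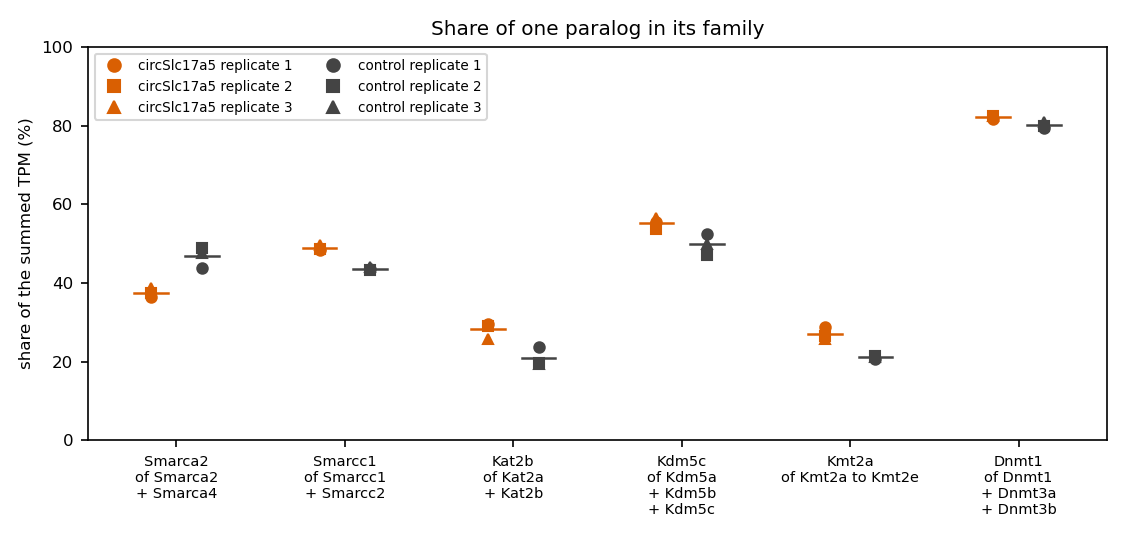
Share of a gene in the summed TPM of its paralogs (percent, axis from 0 to 100), per library; orange symbols are circSlc17a5 and dark symbols control libraries, the shape gives the replicate and the line the mean of 3. The share of Smarca2 is lower in all circSlc17a5 libraries, and the shares of Smarcc1, Kat2b, Kdm5c, Kmt2a and Dnmt1 are higher in all of them.

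The direction of the enzymes went with the length of their transcripts. Of 33 tested enzymes with transcripts of at least 6000 bases, 8 rose and 0 fell, while of 31 below 3000 bases 0 rose and 5 fell. Among all tested genes the same bins held 26.2% risen and 2.58% fallen at 6000 bases or more, and 6.32% risen and 14.9% fallen below 3000 bases. Between these lengths, 3 of 31 enzymes rose and 1 fell. The risen enzymes had a median transcript length of 9085 bases, the fallen ones 2386 and the rest 4066. Across the 95 enzymes Spearman's rho between log2 fold change and length was 0.581, and across 11526 genes with a length it was 0.407; genes share the same 6 libraries and are not independent replicates.

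With an offset for transcript length and GC content in the edgeR fit, 3 enzymes rose and 12 fell, or 15.8% called, against 23% of all tested genes (9.92% risen, 13.1% fallen). The risen genes were then Chd9, Kmt2a and Kdm5a, at log2 fold changes of 0.51, 0.31 and 0.20. The fallen genes were the same 6 as before, and also Chd4, Chd8, Ehmt2, Kdm5b, Smarca4 and Smarcc2, with 0 of the 7 sirtuins called. Of the 17 calls without the offset, 9 were shared. The other 8, Chd2, Chd7, Dnmt1, Kat2b, Kdm3b, Kdm5c, Kdm7a and Smarcc1, all risen genes, no longer passed. The SWI/SNF class then held 0 risen and 5 fallen of 12, with a median of −0.23, the CHD remodellers 1 risen and 2 fallen of 10, and the lysine demethylases and the lysine methyltransferases 1 risen and 1 fallen each.

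**Figure D4:**
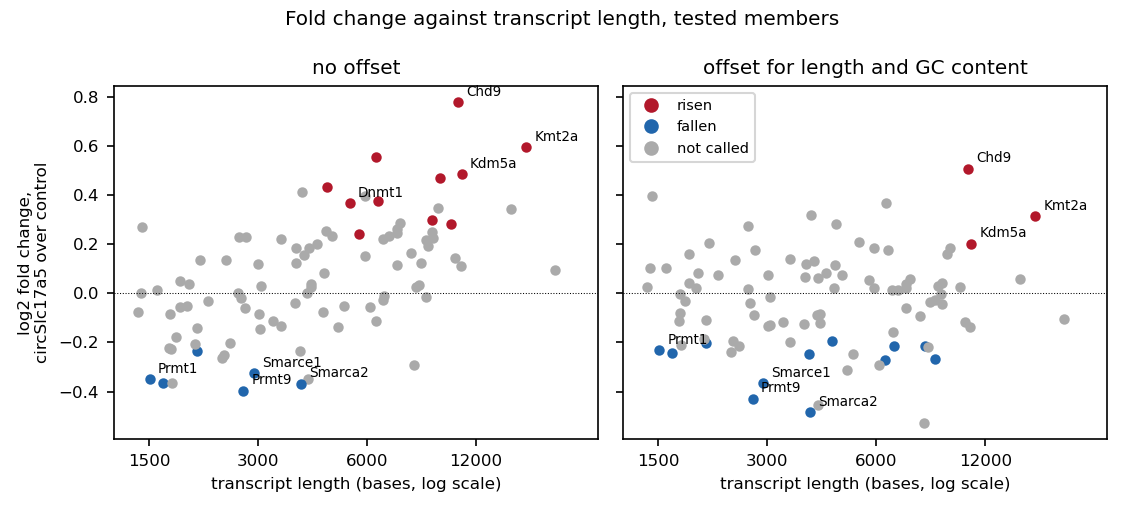
Log2 fold change, circSlc17a5 over control, against transcript length (bases, log axis) for the 95 tested enzymes, without (left) and with (right) an offset for length and GC content; colours give the call in each fit. The upward slope on the left, with Spearman's rho of 0.581, is 0.0554 on the right, where Chd9, Kmt2a and Kdm5a are the risen points.

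The number of calls depended on single libraries. With control replicate 1 left out, 36 of 96 tested enzymes were called, 26 risen and 10 fallen, against 39.7% of all tested genes (20.5% risen, 19.2% fallen), and 16 of the 17 calls were kept. With circSlc17a5 replicate 1, 2 or 3 left out, 3, 3 and 8 enzymes were called, against 3.9%, 5.89% and 9.17% of all tested genes. With control replicate 2 or 3 left out, 6 and 3 were called, against 8.45% and 6.39%. circSlc17a5 replicate 1 was the highest of the 6 libraries in 11 of 11 risen enzymes. Control replicate 1 was the highest control in 10 of 11 and control replicate 2 the lowest in 9 of 11. A replicate block gave 33 called enzymes, against 37.8% of all genes, and leaving out control replicate 1 and circSlc17a5 replicate 2 together gave 33, against 31.3%. DESeq2's size factors and the fit with no filter on low counts gave 17 each, against 22% and 16.9%. The authors' deposited table called 19 enzymes, against 15% of its genes.

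Transcript isoforms of the enzymes were too variable to resolve. Of 584 transcripts of the enzymes, 361 from 94 genes were tested and 0 were called by edgeR (smallest adjusted p = 0.164), against 0.00708% of all 28266 tested transcripts. At an unadjusted p under 0.05 there were 60, or 16.6%, against 14.7% of all transcripts, with 26 higher and 34 lower. The median SE of their log2 fold changes was 0.685, against 0.0968 for the enzymes' genes.

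Partner subunits and enzymes with other names were taken from 10 lists picked by function. Of 135 tested genes, 26 rose and 9 fell, or 25.9%, against 22% of all tested genes, with a median log2 fold change of 0.09. With control replicate 1 left out, 46 rose and 20 fell, or 48.9%, against 39.7% of all tested genes. With the offset for length and GC content 14 rose and 18 fell, or 23.7%, against 23% of all tested genes. With the offset the other acetyltransferases held 2 risen and 2 fallen, the ubiquitin ligase Polycomb genes 2 and 2, and the deacetylase complexes 1 and 5.

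Other lysine methyltransferases held 5 risen and 1 fallen gene of 14, or 42.9%, against 22% of all tested genes. With the offset for length and GC content 3 rose and 0 fell, or 21.4%, against 23% of all tested genes. Suv39h1, the methyltransferase of constitutive heterochromatin, had 71.7, 69.4 and 69.1 CPM in circSlc17a5 libraries, against 51.0, 50.2 and 56.7 CPM in control libraries. These groups were well apart (log2 fold change 0.41, edgeR adjusted p = 0.00811). Nsd3 (log2 fold change 0.45) rose as well, and both calls held without each single library. Smyd2, a lysine methyltransferase that also acts on proteins other than histones, fell (−0.28). Its call was lost in 5 of the 6 fits that left out 1 library, and with the offset (edgeR adjusted p = 0.0658).

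Acetyltransferases outside the Kat symbols held 5 risen and 1 fallen gene of 10. Clock, a circadian factor, and Ep300, a coactivator acetyltransferase, rose (log2 fold change 0.47 and 0.46). Crebbp, the paralog of Ep300, fell, with 14.81, 13.60 and 14.99 CPM in circSlc17a5 libraries, against 16.95, 20.80 and 17.90 CPM in control libraries. Those groups did not overlap (log2 fold change −0.36, edgeR adjusted p = 0.0376). Of the 6 fits that left out 1 library, 5 lost the Crebbp call, 3 the Ep300 call and 2 the Clock call. With the offset Ep300 was not called (edgeR adjusted p = 0.0594), while Clock and Crebbp were. Of the other demethylases, 2 of 7 rose and 0 fell, or 28.6%, against 22% of all tested genes. The risen genes were Hr and Jmjd1c (0.87 and 0.46). The Hr call was lost in 4 of those fits and the Jmjd1c call in 3. With the offset Jmjd1c was not called (edgeR adjusted p = 0.0595), while Hr was.

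Among partners of the methyltransferases, 2 of 13 COMPASS genes rose and 0 fell. Hcfc1, a host cell factor that binds Kmt2 complexes, had 136.4, 116.0 and 111.5 CPM in circSlc17a5 libraries, against 93.2, 72.6 and 82.9 CPM in control libraries. It rose in every fit that left out 1 library (log2 fold change 0.55, edgeR adjusted p = 0.00946, highest 0.0491). Psip1 rose by 0.27 on the log2 scale. Of 11 genes that partner Ezh1 and Ezh2, Suz12, a core subunit, rose (0.31) and Mtf2, an accessory subunit, fell (−0.27). Of 17 Polycomb repressive complex genes of the ubiquitin ligase type, 3 rose and 0 fell, Rnf2, the ligase, among them (0.30). The calls of Psip1, Suz12, Mtf2 and Rnf2 were each lost in 5 of the 6 fits that left out 1 library. With the offset Suz12 was not called (edgeR adjusted p = 0.0785), while Psip1, Mtf2 and Rnf2 were.

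The deacetylase complexes NuRD, Sin3, NCoR and CoREST held 1 risen and 3 fallen genes of 22. Sin3a, a scaffold, was at 0.38 and Mbd3, a NuRD subunit, at −0.36 on the log2 scale. Of the 6 fits that left out 1 library, 4 lost the Sin3a call and 5 the Mbd3 call. With the offset Mbd3 was not called (edgeR adjusted p = 0.114), while Sin3a was. SWI/SNF accessory subunits held 2 risen and 0 fallen of 16, Pbrm1 and Bicral (0.42 and 0.36). With the offset for length and GC content that list turned to 0 risen and 5 fallen, and Pbrm1 and Bicral were not called (edgeR adjusted p = 0.124 and 0.223). The ISWI and INO80 family held 4 risen and 2 fallen of 15, or 40.0%, against 22% of all tested genes. In it Ercc6l, a mitotic SNF2-type ATPase, had 9.7, 10.2 and 7.6 CPM in circSlc17a5 libraries, against 5.3, 4.1 and 5.3 CPM in control libraries, and rose in each fit that left out 1 library (log2 fold change 0.90, edgeR adjusted p = 0.00735). Baz2a, a nucleolar remodeller subunit, rose by 0.56, and Ruvbl2 and Ruvbl1, paired ATPases of the INO80 complex, fell. Of the 6 fits that left out 1 library, 2 lost the Baz2a call. Ruvbl2, Ruvbl1, Pbrm1 and Bicral each lost theirs in 5. With the offset Baz2a stayed called, while Ruvbl2 and Ruvbl1 were not (edgeR adjusted p = 0.275 and 0.118). Among DNA methylation readers and repair genes, 1 of 10 rose and 1 fell, Mbd4, a thymine glycosylase (0.51), and Apex1, an abasic site endonuclease (−0.33). With the offset that list held 0 risen and 1 fallen gene, so Mbd4 no longer rose.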

How the data were processed

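Gene and transcript expression were measured by RNA-seq in 6 libraries, 3 per group, with groups and replicate numbers taken from the sample titles. Per gene and per transcript, the deposited values are expected counts, FPKM and TPM, and between 9.1% and 10.8% of a library's gene values were not whole (tolerance 0.001). The tools listed, per the submitters' processing notes, are RSEM 1.2.12, HISAT2 2.0.4 and Bowtie2 2.2.5, without their roles. For the genome build and the strand setting, nothing is given in the sources used here. A table the authors deposited holds their log2 fold changes with p-values and q-values, which per the file headers come from DESeq2. There were 24 repeated per-sample columns that were not used, and 1 table entry without annotation was left out.

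Expected counts were rounded, filtered with filterByExpr and scaled by TMM. The two-sided quasi-likelihood test of edgeR 4.0.16 in R 4.3.3 ran over all genes, with Benjamini-Hochberg adjustment and a threshold of 0.05. The SE is the log2 fold change over the square root of F. CPM values are per TMM-scaled total, TPM values are as deposited. The same test was run on transcripts and tested on simulated data. Alternatives used DESeq2 1.42.0, limma 3.58.1 on counts and on log2(FPKM + 1) or log2(FPKM + 0.1), a replicate block, an offset for transcript length and GC content, no low-count filter, each library left out, and control replicate 1 with circSlc17a5 replicate 2 left out together. Promoter windows come from RefSeq GRCm38.p6, matched by gene identifier for 83 of the 100 enzymes.

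The enzymes, lists and tests were chosen with earlier results of these data known. Genes were named by a rule: Slc17a5, in each class up to 3 risen and 3 fallen members by adjusted p and the member with the highest TPM, all Dnmt, Tet, Ezh and Ehmt genes, and in each list of other chromatin genes up to 2 risen and 2 fallen. Every other named gene, such as the paralogs of called enzymes, was chosen after its values were seen, and some genes that the rule names are not described.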

Additional observations from a re-analysis of the deposited data

How the results depend on the processing

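The 17 changed enzymes became 33 with a replicate block and 33 without control replicate 1 and circSlc17a5 replicate 2 together, and 3 to 36 with single libraries left out. Risen enzymes (11) became 24, 24 and, with the length and GC offset, 3, and 1 to 26 with single libraries left out. Fallen enzymes (6) became 12 with the offset, and 1 to 10. All changed genes (2584) became 4429 with the block and 462 to 4699. Other chromatin genes (35) became 65 with the block, 58 without both libraries and 4 to 66. The enzymes' median of 0.0383 became 0.106 on log2(FPKM + 1), 0.117 on log2(FPKM + 0.1) and 0.0298 to 0.0987 with single libraries left out. The changed transcripts stayed at 0 in every edgeR fit run. Another size factor, no low-count filter, DESeq2 and limma-voom gave 17 to 19 changed enzymes, and the authors' deposited table called 19, of which 17 were shared and Ehmt2 and Kdm4a were not. Over all genes the split of 1386 risen and 1198 fallen became 1481 and 676 on log2(FPKM + 1), 1500 and 687 on log2(FPKM + 0.1), and 1143 and 1505 with the offset.

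The replicate numbers were not taken to pair the libraries: deviations of same-numbered libraries correlated at 0.219, 0.0678 and 0.0649, and circSlc17a5 replicate 3 correlated best with control replicate 2 (0.31), so the block is given only as an alternative.

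Among the genes named in the report, those whose log2 fold change turned sign were not called with all 6 libraries and no offset; enzymes not named also turned sign. On log2(FPKM + 1) and log2(FPKM + 0.1) these were Chd4 (0.0759, 0.0776), Kdm5b (0.0964, 0.102), Kdm6b (0.0484, 0.0504), Prmt5 (0.0576, 0.0592), Sirt2 (0.0185, 0.0188) and Smarcc2 (0.0113, 0.0118). With the offset they were Chd8 (−0.215), Dnmt3a (−0.0266), Ezh1 (−0.0853), Kmt2b (−0.0371), Kmt2d (−0.106), Sirt2 (0.0434), Tet2 (−0.0421) and Tet3 (−0.137), of which Chd8 was then called. Without both libraries they were Chd4 (0.0202), Kdm6b (0.00834) and Prmt5 (0.0498). With single libraries left out the ranges crossed 0 for Chd4 (−0.0441 to 0.0271), Chd8 (−0.0524 to 0.0719), Ezh1 (−0.0137 to 0.0813), Kdm5b (−0.0695 to 0.0317), Kdm6b (−0.0946 to 0.021), Kmt2d (−0.0713 to 0.176) and Prmt5 (−0.0923 to 0.0616). The causes were not tested. With 3 libraries a group and 1 cell line, small differences cannot be resolved. The median SE was 0.0968, and a difference had to be several SE wide to be called. Log2 fold changes of −0.21 (Hdac2, SE 0.0765) and 0.29 (Setd7, SE 0.0995) were not called. Genes near the threshold pass or fail with 1 library.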

Other observations

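The strand given by the deposited annotation was opposite to that of RefSeq GRCm38.p6 for 22 of the 83 enzymes with a promoter window, so no deposited strand is printed. The 5 enzymes too low to test were not absent from every library. Tet1 counts are given above, Prmt8 had 3, 2 and 2 counts in circSlc17a5 and 0, 1 and 1 in control libraries, Hdac9 had 3, 1 and 0 in circSlc17a5 and 1, 2 and 1 in control libraries, Kdm4d had 1 count in a circSlc17a5 and 1 in a control library, and Smarca1 had 1 count in control replicate 2.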
